A study of Mus musculus with 11 samples.

Results

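Expression of 41 DNA damage checkpoint and repair genes was followed in forelimb buds of mouse embryos with reduced Gmnn, the gene for Geminin. The genes were taken by symbol from the deposited count table, where all 41 were found among 47517 gene names. They comprise 14 checkpoint kinases and adaptors, 14 genes of homologous recombination, 7 of the Fanconi pathway and 6 of end joining and single-strand break repair. All 41 had enough reads to be tested. Mutant embryos were Gmnn f/f; Prx-Cre (6 libraries) and control embryos were Gmnn +/f; Prx-Cre (5 libraries), all at E10.5 on a C57BL/6 background. Every embryo thus carried the Prx-Cre transgene and at least 1 floxed Gmnn allele, so that the controls can make Gmnn from 1 allele in cells that recombine. Prx-Cre drives Cre in limb bud mesenchyme, and other cells of the bud keep their alleles. The libraries came from 4 litters, named A to D here, and each litter held both genotypes. Litter A had controls 1 and 2 with mutants 1 and 2, litter B control 3 with mutant 6, litter C control 4 with mutant 5, and litter D control 5 with mutants 3 and 4.

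Geminin binds the licensing factor Cdt1 and so keeps origins that have already fired from being licensed again in the same cell cycle. In cultured cells, loss of Geminin is known to allow re-replication, and the resulting stalled and collapsed forks activate the kinases Atr and Atm. Atr signals through Chek1 and Atm through Chek2, broken forks are repaired mainly by homologous recombination with the help of the Fanconi proteins, and broken ends without a sister copy are joined by the Ku and DNA-dependent kinase pathway. Most of these proteins are regulated by phosphorylation, ubiquitylation and recruitment, which counts of transcripts do not measure. Many of their genes are transcribed more strongly in cycling cells, through E2F factors.

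As an example of a promoter feature that the gene names did not use, the 250 bases before each RefSeq start were searched for E2F motifs. The motifs were TTTGGCGC, TTTCCCGC, TTTCGCGC and TTTGCCGC, searched on both strands. RefSeq promoters (build GRCm38.p6) were matched for 31 of the 41 genes, and 5 of the 31 (16.1%) held a motif, against 3.84% of 11366 tested genes with a promoter. The motif TTTGAA, searched as a form of the cell cycle homology region, was in 2 of the 31 (6.45%), Hus1 and Bard1, and in 12.9% of the same genes. Both shares are descriptions and were not tested. The 5 genes with an E2F motif were Chek2, Mdc1, Brca2, Bard1 and Xrcc6, each with 1 match, and their log2 fold changes (mutant over control, described below) were -0.07, -0.06, 0.15, 0.10 and -0.11. The 60 bases around the match are shown 5′ to 3′ for the 4 genes in which this stretch lay outside the exons of the deposited table, with the match in capitals, to show where the match lies in each promoter. The likeness of the capitals is set by the search.
Chek2 (chr5:110839805-110839864, plus strand): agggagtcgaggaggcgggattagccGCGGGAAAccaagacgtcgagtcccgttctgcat
Mdc1 (chr17:35841438-35841497, plus strand): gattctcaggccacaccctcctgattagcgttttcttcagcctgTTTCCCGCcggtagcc
Brca2 (chr5:150522427-150522486, plus strand): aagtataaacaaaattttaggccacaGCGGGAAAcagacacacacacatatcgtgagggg
Bard1 (chr1:71103148-71103207, minus strand): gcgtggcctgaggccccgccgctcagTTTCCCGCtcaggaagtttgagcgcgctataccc
All 4 matches were to the same motif, read forward in Mdc1 and Bard1 and as its reverse complement in Chek2 and Brca2. They ended between 9 bases (Mdc1) and 202 bases (Bard1) before the RefSeq start.

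Reads assigned to genes totalled 14777833 to 19733288 in controls and 14721181 to 17034741 in mutants. Gmnn itself, as the check of the labels, was lower in mutants (log2 fold change of mutant over control -0.67, SE 0.10, adjusted p 0.0291 in edgeR), with all 6 mutants below all 5 controls and means of 115.3 ± 16.1 CPM (SD, n = 6) against 179.6 ± 40.2 CPM (SD, n = 5), where CPM are read counts scaled to the size of the library. An exact two-sided permutation test within litters gave p = 0.0139 for Gmnn, the lowest value that its 72 arrangements allow. Its adjusted p stayed under the threshold in 3 of 11 fits with 1 library removed, those without control 1, control 5 or mutant 2. Removing control 3, 4 or 5 or mutant 5 or 6 leaves a litter with 1 genotype. That whole litter then adds nothing to the genotype comparison. Markers of limb mesenchyme (6 of 6 tested) summed to 775 to 967 CPM in controls and 661 to 790 CPM in mutants, and 2 of them, Meis1 and Lhx9, fell. Both calls were kept in 2 of 11 fits with 1 library removed, those without control 5 or mutant 2. Of the marker genes for surface ectoderm, red blood cells, endothelium, macrophages, muscle precursors, neural crest and neural tube, none passed the threshold by edgeR's quasi-likelihood test, and of these the neural tube marker Olig2 had no reads. Of the neural crest markers 3 of 5 could be tested, and of the neural tube markers 1 of 4. The median log2 fold change was -1.19 for muscle precursors, -0.48 for neural crest, -0.22 for neural tube and -0.16 for surface ectoderm. It was -0.03 for endothelium, 0.36 for macrophages and 0.70 for red blood cells. Muscle precursor markers summed to 41.8 to 79.0 CPM in controls and 37.7 to 73.4 CPM in mutants. Red blood cell markers summed to 6498 to 15398 CPM in controls and 7589 to 28133 CPM in mutants, and macrophage markers to 5.40 to 18.8 and 7.37 to 20.8 CPM. In such bulk samples, fewer cells of a type and less RNA per cell cannot be told apart. A library measure, called the T-run measure here, also moved with genotype. Genes with long runs of T in their transcripts stood 1.86 log2 CPM above genes with short runs in control 5 and 2.11 to 2.30 above them in the other controls, against 1.53 to 2.11 in mutants.

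None of the 41 genes passed the threshold of an adjusted p of 0.05 in the quasi-likelihood test of edgeR, fitted with a term for litter, where p-values were adjusted over 15821 genes. Among all genes tested, 1.48% passed as lower and 0.702% as higher in mutants. DESeq2 called 4 of the 41 genes as lower (9.76%) and 0 as higher, where it called 4.94% of all genes as lower and 2.61% as higher. By limma-voom, 0 of the 41 passed, against 1.93% of all genes lower and 0.841% higher. At an unadjusted p under 0.05, 8 of the 41 genes (19.5%) were lower in mutants and 0 were higher, where all genes had 11.5% lower and 9.84% higher. These 8 were Rad9a, Rad54l, Rbbp8, Mre11a, Xrcc2, Fanca, Fancb and Fanci. The counts depended on the fit: 5 genes were lower and 1 higher at that level with upper-quartile scaling, and 1 lower and 2 higher with the T-run measure as a covariate. The fold change was below 0 in 29 of the 41 genes and above 0 in 12, with a median log2 fold change of -0.06 against 0.00 over all genes tested. With upper-quartile scaling 22 genes were below 0, and with the T-run covariate 18 were. The fold changes ran from -0.70 to 0.17, and 20 of the 41 genes differed by under 0.1 on the log2 scale.

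The precision of these values bounds the changes in bulk level that could have been missed, within this fit. The buds also hold cells that keep their alleles, so changes within the recombined cells are not bounded. Values differed in other fits: with the T-run covariate, Brca2 had 0.35 and Atrip -1.20 on the log2 scale. Intervals were not computed for that fit. For 37 of the 41 genes the 95% interval of the fold change lay within a 1.5-fold change in either direction. The 4 others were H2afx, Atrip, Fanci and Fancb, whose intervals reached past a 1.5-fold decrease and not past a 1.5-fold increase. In this fit, no interval in the list reached a 1.5-fold increase. The p53 target genes gave a contrast in the same libraries. Of 20 such genes, a list written with earlier results of these data known, 9 rose and 0 fell by the same edgeR test, with a median log2 fold change of 0.54, and the 6 with the lowest p were Ccng1 (1.48), Eda2r (2.08), Sesn2 (0.98), Zmat3 (0.64), Ddit4l (1.06) and the cell cycle inhibitor Cdkn1a (1.38). In these 6 all mutants lay above all controls. The calls depended on which libraries or litters were kept: 1 to 11 of the 20 genes passed in the 11 fits with 1 library removed. Only 1 remained (Ccng1) without control 4 or without mutant 5, each of which takes litter C out of the genotype comparison. With the T-run covariate, 1 of the 20 passed, again Ccng1, and the median was 0.28. No p53 target was called lower in any of these fits.

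**Figure D1:**
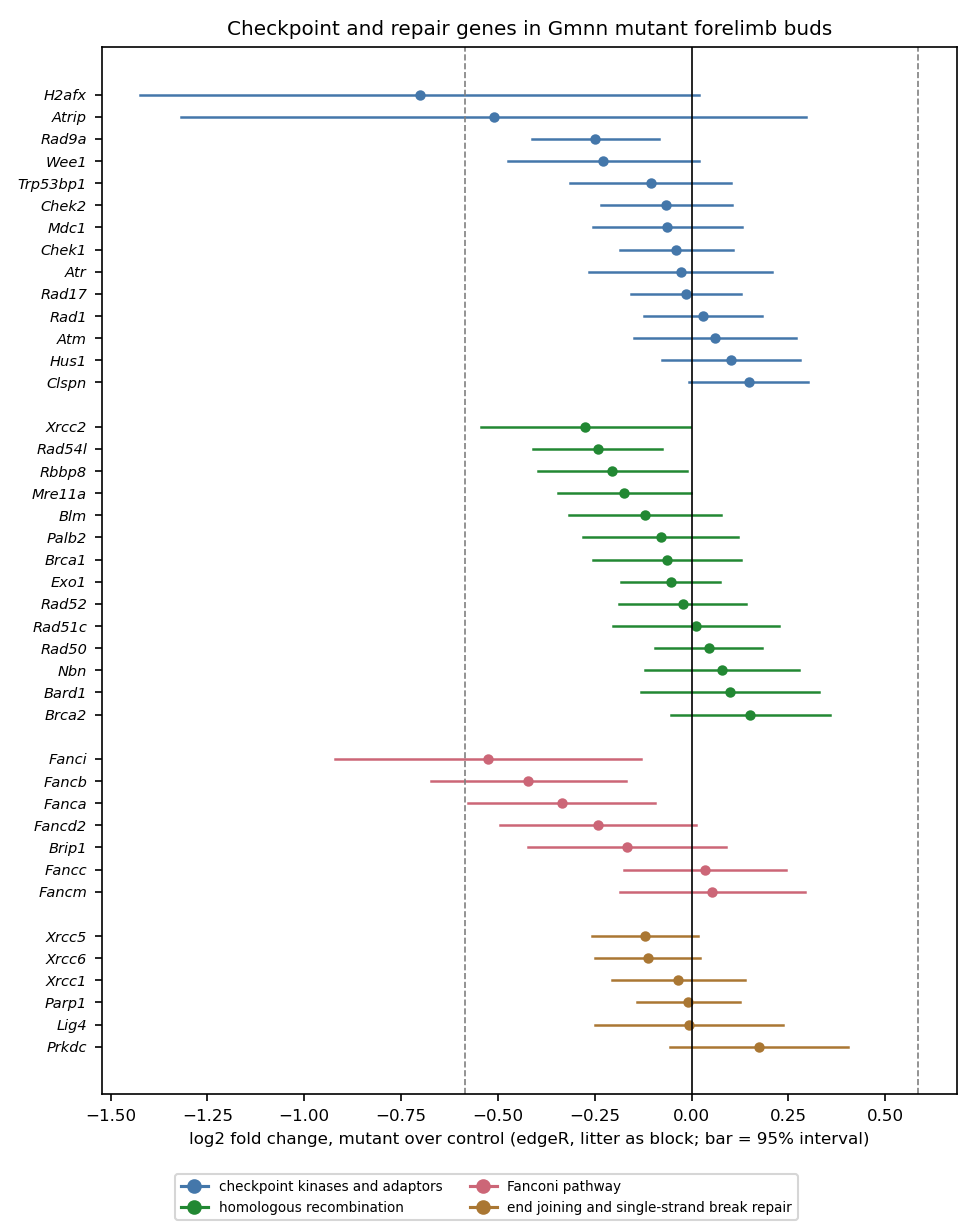
Log2 fold change of each of the 41 genes (points) with its 95% interval (bars) from edgeR with litter as a block, grouped and coloured by role; the x axis is log2 of mutant over control and the dashed lines mark 1.5-fold changes. The intervals of 37 genes lie between the dashed lines, and those of H2afx, Atrip, Fanci and Fancb cross the left line.

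The levels of these genes differed widely within the buds. Per kilobase of exon, the control mean was lowest in Atrip, at 0.178 CPM. H2afx, the gene for the histone variant that is phosphorylated around breaks, had the highest mean, 62.6 ± 45.4 CPM per kilobase (SD, n = 5), through control 1 at 139.7, and a mean of 43.3 without that library. Parp1, the sensor of single-strand breaks, had 50.55 ± 2.38 CPM per kilobase (SD, n = 5), then came Rad9a at 40.6 ± 2.02 and the Ku subunits Xrcc5 at 35.8 ± 3.56 and Xrcc6 at 22.6 ± 1.51. In all, 13 of the 41 genes had at least 10 CPM per kilobase in controls. The 3 genes under 1 CPM per kilobase were Prkdc, Atr and Atrip, so that the catalytic subunit of the DNA-dependent kinase stood far below the Ku subunits on this scale. The scale divides by all annotated exon bases of a gene, 23492 for Atr, so the order also depends on that length. Neighbours in the order often did not differ beyond their spread, as with Rad54l (16.3 ± 1.56), Rad17 (15.9 ± 0.875) and Chek1 (14.97 ± 1.61). In mutants, Parp1 came first at 50.05 ± 1.91 CPM per kilobase (SD, n = 6) and H2afx next at 35.2 ± 6.13, followed by Rad9a, Xrcc5 and Xrcc6 in the same order as in controls.

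The kinases at the head of the checkpoint had fold changes near 0. Atr, the kinase that responds to exposed single-stranded DNA at forks, stood at 19.2, 14.1, 19.2, 18.6 and 18.9 CPM in controls 1 to 5, and at 16.0 to 23.1 CPM (median 16.7) in mutants. The groups overlapped, and Atr differed by -0.03 on the log2 scale (SE 0.11, adjusted p 0.915 in edgeR), with a 95% interval of -0.27 to 0.21. Atm, the kinase that responds to double-strand breaks, differed by 0.06 (95% interval -0.15 to 0.27). Of their effector kinases, Chek1 had 72.0, 65.7, 77.2, 73.8 and 58.3 CPM in controls and 61.2 to 73.2 CPM (median 65.0) in mutants. The lowest of these 11 values of Chek1 was control 5. Its log2 fold change was -0.04 (95% interval -0.18 to 0.11), and that of Chek2 was -0.07 (95% interval -0.24 to 0.10).

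Claspin, the adaptor that lets Atr reach Chek1, is encoded by Clspn. It had 68.0, 69.3, 69.1, 72.3 and 80.0 CPM in controls and 73.4 to 87.4 CPM (median 78.7) in mutants. Control 5 lay within the mutant range, and the other controls below it. The difference of 0.15 on the log2 scale (SE 0.07) did not pass the test (unadjusted p 0.0590, adjusted p 0.254 in edgeR). It is the checkpoint gene with the highest fold change, and its 95% interval ran from -0.01 to 0.30.

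The clamp made of Rad9a, Rad1 and Hus1, which is loaded at damaged forks by Rad17, held 1 of the 8 genes at an unadjusted p under 0.05. Rad9a (chromosome 19, 4195198 to 4201603, mm10) had 89.4, 81.2, 84.5, 81.2 and 78.6 CPM in controls and 60.8 to 77.8 CPM (median 71.0) in mutants. No mutant reached the control range. Rad9a differed by -0.25 on the log2 scale (SE 0.08, unadjusted p 0.00617, adjusted p 0.0915 in edgeR), and in each of the 4 litters the mutants averaged below the controls. Without control 5, the only control of litter D, the value was -0.31 and passed (adjusted p 0.0435 in edgeR). That fit compares the genotypes in litters A to C only. DESeq2 also called Rad9a (adjusted p 0.0414). Of the exon bases of Rad9a, 10.9% also lie in exons of Ppp1ca, and the counting did not use strand. Its partners Rad1 and Hus1 had log2 fold changes of 0.03 and 0.10, and the clamp loader subunit Rad17 had -0.01. Differences between these subunits were not tested.

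H2afx had the largest fold change of the list and the largest spread. Its level was 193.3, 49.8, 94.2, 45.9 and 49.7 CPM in controls and 34.2 to 58.0 CPM (median 48.4) in mutants. Controls 1 and 3 stood far above all other libraries, and the other 3 controls lay within the mutant range. Its fold change, -0.70 on the log2 scale (SE 0.33, adjusted p 0.245 in edgeR), became -0.23 without control 1. Genes of core and linker histones, chosen after this value was seen, did not follow it: 61 of them summed to 217.8 CPM in control 1, 213.1 in control 3 and 190.7 to 220.7 in the other controls, and the variant H2afz had 64.9, 58.8 and 59.7 to 75.6 CPM. The cause was not tested.

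Of the other checkpoint genes, none passed the test. Wee1, the kinase that holds Cdk1 inactive, had 11.1, 9.99, 12.3, 10.1 and 8.55 CPM in controls and 8.04 to 9.50 CPM (median 8.68) in mutants. Here again control 5 lay among the mutants, while the other 4 controls lay above them all. Wee1 differed by -0.23 on the log2 scale (SE 0.11, adjusted p 0.271 in edgeR), and -0.31 without control 5 (adjusted p 0.165 in edgeR). The chromatin adaptors Mdc1, which binds phosphorylated H2afx, and Trp53bp1, which steers breaks towards end joining, had -0.06 and -0.11. Atrip, the partner of Atr, had 7 to 19 reads per library, and 49.9% of its exon bases also lie in exons of Gm42641, so its log2 fold change of -0.51 (95% interval -1.32 to 0.30) is uncertain.

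**Figure D2:**
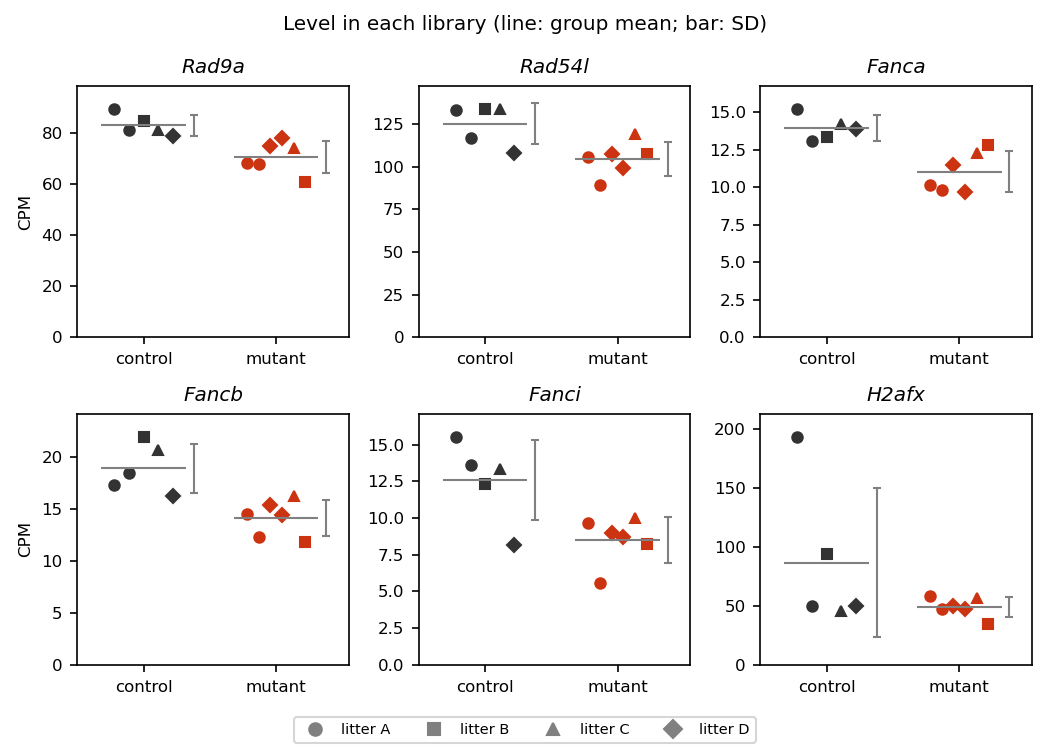
Level in CPM (y axis, from 0) of 6 genes in each library, with controls in black and mutants in red, litters A to D by marker shape, group means as lines and SD as bars. Mutants lie below controls without overlap for Rad9a, Fanca and Fancb; control 5 of litter D lies within the mutant range for Rad54l and Fanci, and controls 1 and 3 stand apart for H2afx.

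The 14 genes of homologous recombination had a median log2 fold change of -0.06. Of these, 4 had an unadjusted p under 0.05, all lower in mutants, against 11.5% of all genes that were lower. Rad54l, a motor protein that moves along DNA, was the clearest of them. It had 133.2, 117.2, 134.1, 133.9 and 108.1 CPM in controls and 89.3 to 119.6 CPM (median 106.6) in mutants. Mutant 5 was the only mutant within the control range, above controls 2 and 5. The fitted difference was -0.24 on the log2 scale (SE 0.08, unadjusted p 0.00810, adjusted p 0.103 in edgeR), with lower values in each of the 4 litters. DESeq2 called it (adjusted p 0.0463). Its exons overlap those of Lrrc41 over 15.4% of their bases.

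The other 3 were smaller or less even. Xrcc2, which acts in strand exchange, had 25.1, 18.9, 17.2, 23.1 and 19.3 CPM in controls and 14.3 to 21.1 CPM (median 16.6) in mutants. The mutant mean was lower in litters A, C and D and higher in litter B (0.13), and the log2 fold change was -0.27 (SE 0.12, adjusted p 0.228 in edgeR). Rbbp8, which encodes the end resection factor CtIP, had 33.7, 37.8, 40.5, 39.7 and 38.7 CPM in controls and 30.0 to 38.4 CPM (median 32.5) in mutants. Mutant 1 lay within the control range, and the other 5 mutants lay below it. Rbbp8 had a log2 fold change of -0.20 (SE 0.09, adjusted p 0.212 in edgeR) and was lower in all 4 litters.

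Mre11a, the nuclease of the complex that first binds broken ends, had 47.1, 43.4, 38.4, 49.1 and 46.8 CPM in controls and 34.6 to 49.1 CPM (median 38.7) in mutants. Control 3 lay below the mutant median and mutant 5 at the level of the highest control. Its log2 fold change was -0.17 (SE 0.08, adjusted p 0.229 in edgeR). The partners of Mre11a in that complex had values on the other side of 0, with 0.04 (95% interval -0.09 to 0.18) for Rad50 and 0.08 (95% interval -0.12 to 0.28) for Nbn. Differences between the 3 subunits were not tested.

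The breast cancer genes, which act on resected ends, did not pass the test in either direction. Brca1 had 28.6 to 33.3 CPM in controls and 25.3 to 34.3 CPM (median 28.5) in mutants, so that the mutant range enclosed the controls. Its log2 fold change was -0.06 (95% interval -0.26 to 0.13). Its partner Bard1 had 0.10, the bridging protein Palb2 -0.08, and Brca2, which binds Palb2, had 0.15 (95% interval -0.05 to 0.36). Brca2 was higher in mutants in all 4 litters, by 0.07 in litters A and C, 0.20 in B and 0.30 in D on the log2 CPM scale, without passing the test (adjusted p 0.387 in edgeR). The remaining genes of this group, the helicase Blm, the nuclease Exo1, the annealing factor Rad52 and Rad51c, a subunit of the complex that also holds Xrcc2, had -0.12, -0.05, -0.02 and 0.01.

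The Fanconi genes had the lowest median of the 4 groups, -0.24 over 7 genes, with 3 genes at an unadjusted p under 0.05 and 5 of 7 below 0. The 3 genes were lower in mutants, where 11.5% of all genes tested were lower at that level. A list of 15 other Fanconi genes, described below, had a median of -0.03 with 8 below 0. Whether the 7 genes differ from the other groups was not tested. Fancb (chromosome X, 164980592 to 164997272), a subunit of the core ubiquitin ligase, had 17.2, 18.4, 21.9, 20.6 and 16.3 CPM in controls and 11.8 to 16.2 CPM (median 14.5) in mutants. All mutants lay below all controls, by a narrow margin between mutant 5 and control 5. Fancb differed by -0.42 on the log2 scale (SE 0.12, unadjusted p 0.00336, adjusted p 0.0702 in edgeR), with a 95% interval of -0.67 to -0.17, and was lower in all 4 litters. This was the lowest p of the list. DESeq2 called Fancb (adjusted p 0.0208), as did edgeR without control 5 (-0.51, adjusted p 0.0411).

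Fanca (chromosome 8, 123268300 to 123318576), also of the core complex, had 15.2, 13.1, 13.3, 14.2 and 13.9 CPM in controls and 9.69 to 12.8 CPM (median 10.8) in mutants. The groups did not overlap here either. Fanca differed by -0.34 on the log2 scale (SE 0.11, adjusted p 0.115 in edgeR), lower in all 4 litters, and neither DESeq2 (adjusted p 0.0874) nor any fit without 1 library called it.

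Fanci (chromosome 7, 79391929 to 79450264), which forms with Fancd2 the pair of proteins that the core complex ubiquitylates, had the lowest fold change of the Fanconi genes. Its levels were 15.5, 13.6, 12.3, 13.4 and 8.198 CPM in controls and 5.56 to 9.98 CPM (median 8.84) in mutants. The first 4 controls lay above all mutants, and control 5 lay below the mutant median. In litter D the mutant mean was therefore higher than the control (0.11), while litters A, B and C had -0.98, -0.58 and -0.42 on the log2 CPM scale. Its fitted difference of -0.53 on the log2 scale (SE 0.18, adjusted p 0.129 in edgeR) became -0.72 without control 5 (adjusted p 0.0435 in edgeR), and DESeq2 called the gene (adjusted p 0.0490). Exons of Polg cover 15.95% of its exon bases.

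Fancd2 had 22.8, 19.8, 22.3, 25.9 and 19.9 CPM in controls and 15.02 to 22.5 CPM (median 17.6) in mutants, a difference of -0.24 on the log2 scale (SE 0.12, adjusted p 0.256 in edgeR). Mutants averaged below controls in each of the 4 litters, although mutants 1 and 6 lay within the control range. Brip1, the helicase that binds Brca1, had -0.17 (95% interval -0.42 to 0.09). The core subunit Fancc and the translocase Fancm, which anchors the core complex, had 0.03 and 0.05, so that core complex members lay on both sides of 0.

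End joining and single-strand break repair had 0 of 6 genes at an unadjusted p under 0.05, with a median log2 fold change of -0.02. Parp1 had 285.4, 258.4, 271.6, 269.5 and 253.0 CPM in controls and 246.4 to 274.2 CPM (median 267.0) in mutants. Mutant 2 lay below all controls and control 1 above all mutants, and the other libraries overlapped. Its log2 fold change was -0.01 (95% interval -0.14 to 0.12), among the tightest bounds in the list. The scaffold Xrcc1 had -0.03 and Lig4, the ligase of end joining, -0.01.

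Both Ku subunits had small negative values. Xrcc5 had 92.1, 88.5, 104.9, 92.3 and 79.6 CPM in controls and 73.5 to 92.0 CPM (median 81.5) in mutants, a difference of -0.12 on the log2 scale (SE 0.06, adjusted p 0.299 in edgeR), and Xrcc6 had -0.11 (SE 0.06, adjusted p 0.316 in edgeR). Prkdc had the highest fold change of all 41 genes, 0.17 (SE 0.11, adjusted p 0.373 in edgeR), with mutants averaging above controls in each of the 4 litters. Its controls had 13.2, 11.7, 13.8, 12.2 and 12.2 CPM and its mutants 12.6 to 17.98 CPM (median 13.2). Mutants 4 and 6 (16.2 and 17.98 CPM) lay above all controls, and the other 4 mutants lay within the control range.

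By library, the 41 genes moved little as a set. The median difference from the control mean, on the log2 CPM scale, was 0.06, -0.06, 0.02, 0.05 and -0.07 in controls 1 to 5. In mutants 1 to 6 it was -0.10, -0.20, -0.06, -0.06, -0.02 and -0.04. Mutant 2 was the lowest library, with 32 of 41 genes below the control mean, and control 5 lay lower than mutants 3, 4, 5 and 6. Control 2 had 34 of 41 genes below that mean. The median mutant minus control difference within litters was -0.09, -0.06, -0.00 and -0.04 in A to D.

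Groups that do not overlap were found for 3 of the 41 genes (7.32%), Rad9a, Fanca and Fancb, all lower in mutants, against 1.3% of all genes tested that were lower and 1.29% that were higher without overlap. Mutants averaged below controls in each of the 4 litters for 8 of the 41 genes (19.5%), against 13.5% of all genes, and higher in all 4 for 3 genes (7.32%: Hus1, Brca2 and Prkdc), against 12.6%. These counts come from the same libraries as the test and are no further evidence.

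**Figure D3:**
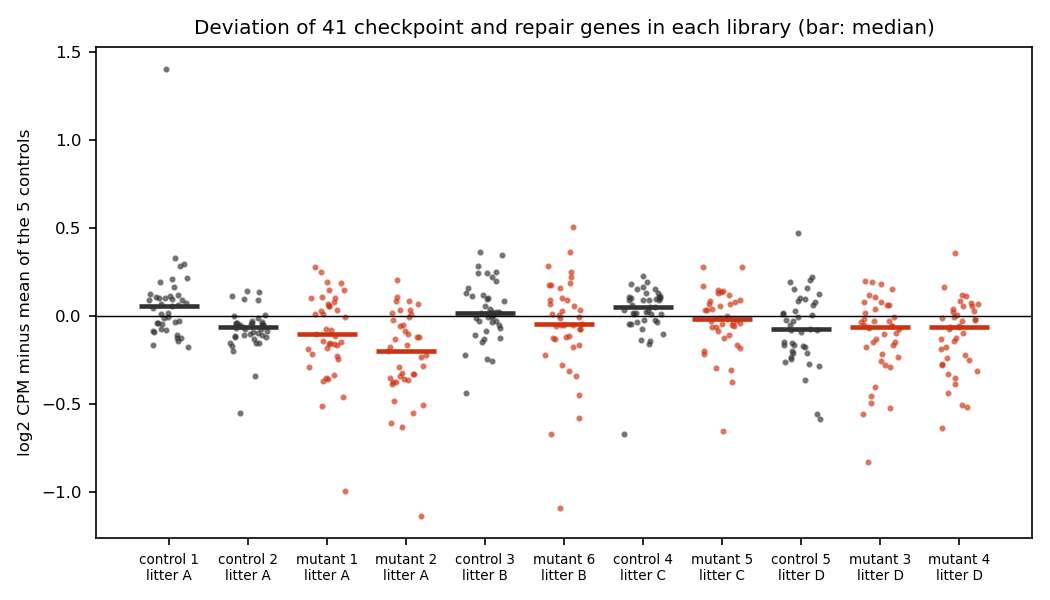
Difference of each of the 41 genes from its mean over the 5 controls (y axis, log2 CPM) in each library, ordered by litter, with controls in black and mutants in red; bars are medians over the genes. The medians lie between -0.20 in mutant 2 and 0.06 in control 1, and the point near 1.4 in control 1 is H2afx.

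Litters differed in 0 of the 41 genes (smallest adjusted p 0.324 in edgeR, in Xrcc5), where 0.0885% of all genes tested passed that test, and in 2 genes (4.88%) at an unadjusted p under 0.05, Xrcc5 and Palb2, against 13.5% of all genes. No interaction of genotype with litter passed the threshold in the 41 genes (smallest adjusted p 0.962 in edgeR), with 0 of them at an unadjusted p under 0.05. Among all genes tested, 0% passed the adjusted threshold for that interaction and 4.01% had an unadjusted p under 0.05. With 1 library of each genotype in litters B and C, the interaction test could miss differences between litters.

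The genes were also fitted beside the T-run measure given above. With that measure as a covariate beside litter, the log2 fold changes were -0.27 for Fancb, -0.22 for Fanca, -0.12 for Rad9a, -0.03 for Rad54l and 0.083 for Fanci, none past the threshold (adjusted p 0.572 to 0.899 in edgeR), and the median over the 41 genes was 0.026. H2afx and Atrip, at -0.70 and -0.51 without the covariate, had 0.21 and -1.20 with it. At an unadjusted p under 0.05 in edgeR, Atrip was the 1 gene lower in that fit. Brca2 and Fancm were the 2 higher. Of the 41 genes, 7 (17.1%) have a run of 15 or more T in a transcript, against 11.8% of the 15291 tested genes with a value. Their median log2 fold change was -0.11, and that of the other 34 was -0.05. The measure differs between the genotypes, and its part in these values and that of genotype cannot be told apart.

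Around these genes, 140 other checkpoint and repair genes in 8 lists were examined, of which 138 were tested. By edgeR, 3 of the 138 fell (2.17%) and 2 rose (1.45%), near the 1.48% and 0.702% of all genes, and their median log2 fold change was -0.07. The checkpoint list held 3 of the 5. Cdc25a, the phosphatase that Chek1 marks for destruction, had 67.6, 67.3, 61.0, 69.4 and 75.5 CPM in controls and 79.2 to 88.7 CPM (median 84.6) in mutants, with no overlap, and rose by 0.31 on the log2 scale (SE 0.07, adjusted p 0.0475 in edgeR). Cdc25c, the phosphatase that activates Cdk1 at mitotic entry, had 84.6, 85.3, 85.1, 92.95 and 84.0 CPM in controls and 61.8 to 73.9 CPM (median 71.1) in mutants, and fell by 0.31 on the log2 scale (SE 0.06, adjusted p 0.0406 in edgeR). The 2 phosphatases of the same family thus differed in opposite directions, each in all 4 litters. Rhno1, which binds the clamp of Rad9a, fell by 0.25 on the log2 scale (SE 0.06, adjusted p 0.0495 in edgeR), with mutants at 132.3 ± 7.79 CPM (SD, n = 6) against 157.5 ± 5.72 CPM (SD, n = 5). Of its exon bases, 23.4% are shared with other genes.

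The other 2 were Fignl1, an ATPase of homologous recombination, and Rad23b, a damage recognition factor of nucleotide excision repair. Fignl1 had 162.2, 172.2, 187.6, 174.6 and 141.9 CPM in controls and 104.9 to 152.1 CPM (median 118.9) in mutants, overlapping through control 5 and mutant 5, and fell by 0.44 on the log2 scale (SE 0.08, adjusted p 0.0353 in edgeR). Rad23b had 59.2, 63.2, 63.4, 64.1 and 73.3 CPM in controls and 79.1 to 83.7 CPM (median 80.96) in mutants, with no overlap, and rose by 0.32 on the log2 scale (SE 0.06, adjusted p 0.0406 in edgeR). None of the 5 calls was kept in more than 2 of 11 fits with 1 library removed. Among those fits, Rhno1 and Cdc25a were called only in the one without control 5, and Cdc25c, Fignl1 and Rad23b only in those without control 5 or without mutant 2, and the direction of each was the same in all 11. With the T-run covariate, Fignl1 had -0.28, Rhno1 -0.20, Cdc25a 0.23 and Rad23b 0.24 on the log2 scale. Among all genes, that fit called 1 higher and 1 lower. Fignl1 has a run of 17 T in a transcript.

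No gene passed in the lists of other Fanconi genes (15 tested), end joining (17), mismatch repair (7), base excision repair (13) and translesion synthesis (14), nor among 8 proliferation markers. The median log2 fold change was -0.03, -0.07, -0.24, -0.09, -0.11 and -0.10 in that order. For mismatch repair, 6 of 7 genes were below 0. The proliferation markers lay on both sides of 0: Ccna2, a cyclin of S and G2 phase, had 0.27 (adjusted p 0.0619 in edgeR) with all mutants above all controls, and Ccnb1, the mitotic cyclin, had -0.12 (adjusted p 0.257 in edgeR) with all mutants below. Bub1, a kinase of the spindle checkpoint, had -0.40 (adjusted p 0.0546 in edgeR). These 3 were chosen after their values were seen. The 8 markers summed to 2168 to 2317 CPM in controls and 2145 to 2257 CPM in mutants, a sum that weights the abundant Top2a (-0.10) and Cdk1 (0.15) most.

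**Figure D4:**
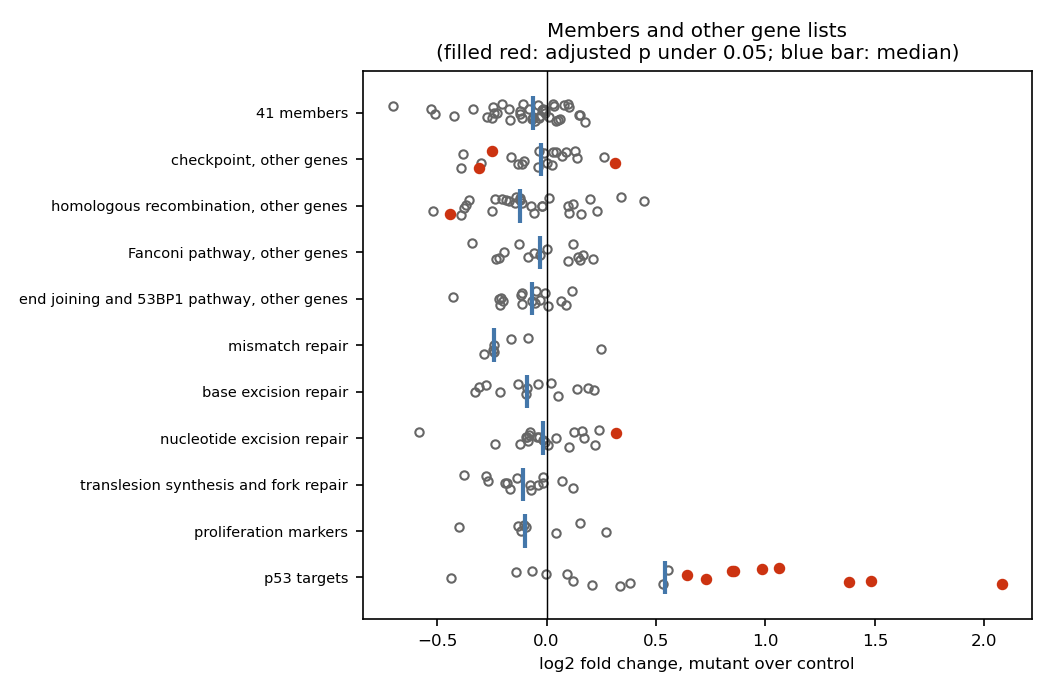
Log2 fold change, mutant over control (x axis), of the 41 genes and of the genes tested in 10 other lists, 1 point per gene; filled red points passed an adjusted p of 0.05 in edgeR and blue bars are medians. The 41 genes and the other repair lists lie around 0, with 5 repair genes called, and 9 of 20 p53 targets are called to the right.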

How the data were processed

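RNA-seq of ribosomal-RNA-depleted total RNA from 11 forelimb bud libraries was used. The deposited table holds raw counts of reads by gene name; per the file headers, the authors counted with featureCounts 1.4.6-p4 on mm10 and GENCODE M9 at a mapping quality of at least 10. The recorded command has no option for strand or for reads over several genes. STAR 2.5.4b is named in the submitters' processing notes. The header lists 12 alignment files and the table has 11 sample columns.

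The 41 genes, the other lists and the tests were chosen with earlier results of these data known. The rule named all 41 genes, Gmnn, and other list genes past the threshold (up to 6 per list). In R 4.3.3 with edgeR 4.0.16, filterByExpr left 15821 genes (99.9% of reads), libraries were scaled by TMM, and the quasi-likelihood F test (two-sided, litter plus genotype, Benjamini-Hochberg over all genes) was run. The procedure was tested on simulated data that held no litter effect. It recovered 28 of 100 genes changed by 0.5 on the log2 scale and 66 of 97 changed by 1. It made 12 false calls among 15258 unchanged genes. Changes of 0.5 thus often went uncalled. CPM use TMM-scaled totals, and log2 CPM a prior count of 2. Intervals are the log2 fold change plus or minus the t quantile times its SE. Embryo sex was not a term of the fit. Shared exon bases come from the deposited exon coordinates, T runs from GENCODE M21 transcripts. The T-run measure is the mean log2 CPM of genes with runs of at least 18 T minus that of genes with runs of at most 5. Alternatives used limma 3.58.1 and DESeq2 1.42.0, and their use on p53 targets and limb markers was added after seeing the data.

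Litter was a block because the titles give it and the design text describes matched litters. Deviations from group means were correlated between control and mutant libraries. Over 8 same-litter pairs of a control and a mutant the values were -0.16 to 0.37 (median 0.13). Over 22 such pairs from different litters they were -0.33 to 0.17 (median -0.02). Libraries are separate embryos, and over 25 pairs within groups chi-square divided by its degrees of freedom was at least 7.04, above sampling noise.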

Additional observations from a re-analysis of the deposited data

Results flagged for a closer look

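Within each genotype, the highest and lowest library were compared with the gap to the next one for the 41 genes and Gmnn, 84 groups in all. In 6 of these 1 library stood outside the spread of its group by Dixon's 95% critical value; chance alone flags about 1 in 20 groups, or about 4.2 here, and the cause was not tested. Atr was low in control 2, at 3.83 log2 CPM (14.1 CPM, against 18.6 in the next control), and high in mutant 6, at 4.54 log2 CPM (23.1 CPM, against 17.7). Mutant 6 was also low for Rad52, at 4.98 log2 CPM (31.5 CPM, against 35.05). Mutant 2 was low for Fanci, at 2.51 log2 CPM (5.56 CPM, against 8.22), and for Fancm, at 3.78 log2 CPM (13.6 CPM, against 16.4). Mutant 1 was low for Atm, at 3.91 log2 CPM (14.9 CPM, against 17.7). H2afx in control 1 did not exceed that value, since control 3 was high as well.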

How the results depend on the processing

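The count of 0 called genes among the 41 became 3 without a filter on low counts (H2afx, Fancb and Fanci), 4 with DESeq2 (Rad9a, Rad54l, Fancb and Fanci) and 0 to 3 in fits without 1 library, the 3 being Rad9a, Fancb and Fanci without control 5. It stayed 0 with RLE or upper-quartile scaling, a filter of 1 CPM in 5 libraries, limma-voom, no litter block, both T-run alternatives, and without each litter. Without control 5, litter D has no control and adds nothing to the genotype comparison. The number of all genes past the threshold, 345, was 1566 without the filter, 550 with the 1 CPM filter, 1194 with DESeq2, 16 without the litter block (no replicate block), 102 without genes of T runs of 15 or more, 2 with the T-run covariate, 1 to 850 without 1 library, 9, 3, 1 and 148 without litters A to D, and 533 without control 5 and mutant 2 together, a choice made after seeing the data. H2afx without the filter had an adjusted p of 3.2e-11 in edgeR, against 0.245 with it, although its controls ranged from 45.9 to 193.3 CPM, and that call is doubtful. Of the called genes, 32.2% were higher in mutants, and 43.1% with upper-quartile scaling. The median log2 fold change of the 41 genes (member median) moved from -0.06 to -0.025 with upper-quartile scaling, which moved the median of all genes to 0.04, to 0.026 with the T-run covariate and to -0.023 without control 5 and mutant 2. For litter differences, 1 of the 41 genes was called without the filter. Gmnn kept its direction throughout and lost its call without the litter block (-0.64, adjusted p 0.0501 in edgeR) and without litters B, C and D (-0.71, -0.65 and -0.57), and ranged from -0.75 to -0.57 without 1 library, where 8 of 11 fits lost the call. Fanci changed sign with the T-run covariate (0.083). Of 1017 single-gene values under the alternatives, 57 had the other sign, in 18 genes. The cause was not tested. Reads per library limit Atrip (7 to 19 reads).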
